A study of Danio rerio with 8 samples.

Results

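A set of 5 genes that mark macrophages and neutrophils was followed through bulk RNA sequencing of zebrafish melanomas. They were chosen by Ensembl ID: mpeg1.1 (ENSDARG00000055290), mpx (ENSDARG00000019521), lyz (ENSDARG00000057789), spi1b (ENSDARG00000000767) and lcp1 (ENSDARG00000023188), which makes 5 of the 22416 genes listed. Tumours of the miniCoopR system, in which a mitfa rescue gene travels with a gene of interest, carried either Tg(mitfa:dgat1a) (n = 5) or Tg(mitfa:egfp) (n = 3). All fish of both groups carried tp53m214K/m214k, mitfa-/- and nras G12D, and tumours were taken at 10 to 12 weeks of age. Both transgenes are driven by the mitfa promoter, which acts in pigment cells, so neither is aimed at leukocytes. dgat1a encodes an enzyme that makes triacylglycerol, and egfp encodes a fluorescent protein.

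Solid tumours can hold white blood cells of the host, and whole-tumour RNA then includes theirs. Macrophages engulf debris and cells, while neutrophils arrive at wounds and inflamed tissue with granules of enzymes that attack microbes. mpeg1.1 encodes a pore-forming protein of macrophages. mpx encodes myeloperoxidase and lyz encodes lysozyme, both used as neutrophil markers in zebrafish. spi1b encodes a transcription factor of the PU.1 type that directs myeloid development, and lcp1 encodes L-plastin, an actin-bundling protein of white blood cells in general. In bulk RNA, fewer cells of a type and less RNA per cell cannot be told apart.

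Libraries held 20936089 to 26865735 reads assigned to genes. Levels are given in fpm, the authors' per-million values, which are not divided by gene length, so levels of different genes were not compared. The egfp replicate 1 library stood apart, with a mean Pearson's r of 0.854 with the other tumours across 16853 genes, against 0.897 to 0.918 for the other 7. As a check of the transgene labels, ENSDARG00000103503, 1 of the IDs to which the reference table gives the symbol DGAT1, ranged from 2223 to 4160 fpm in dgat1a tumours and from 26.5 to 75.1 fpm in egfp tumours. The other such ID averaged 4.43 ± 1.26 fpm in dgat1a tumours (SD, n = 5) and 4.57 ± 0.933 fpm in egfp tumours (SD, n = 3), and the table does not say which of them is dgat1a. The pigment cell genes pmela and sox10 were present in every tumour, at no less than 1398 and 667 fpm.

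The macrophage marker mpeg1.1 was present in all tumours and did not separate the groups. It measured 27.6, 42.0, 32.9, 89.4 and 41.9 fpm in dgat1a replicates 1 to 5, against 12.6, 42.9 and 37.3 fpm in egfp replicates 1 to 3. dgat1a replicate 4 was the highest of the 8 tumours and egfp replicate 1 the lowest, and the other 6 lay close together with the groups mixed. The means were 46.8 ± 24.6 fpm in dgat1a tumours (SD, n = 5) and 30.9 ± 16.2 fpm in egfp tumours (SD, n = 3). The log2 fold change, taken on log2(fpm + 0.5) and positive where dgat1a was higher, was 0.64 (SE 0.47), its 95% interval ran from -0.41 to 1.70, and limma did not call it (adjusted p = 0.526). Without egfp replicate 1 it was 0.10 (limma adjusted p = 0.963).

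The neutrophil marker mpx had the widest range from tumour to tumour among the 4 markers that could be tested. It measured 3.03, 19.4, 11.7, 28.1 and 31.2 fpm in dgat1a replicates 1 to 5, against 0.749, 5.07 and 8.65 fpm in egfp replicates 1 to 3. In dgat1a tumours 4 of the 5 values lay above all egfp values, and dgat1a replicate 1 lay within the egfp range. The means were 18.7 ± 11.6 fpm in dgat1a tumours (SD, n = 5) and 4.82 ± 3.96 fpm in egfp tumours (SD, n = 3). On the same scale mpx had a log2 fold change of 1.92 (SE 0.82) and a 95% interval from 0.08 to 3.76. Its unadjusted limma p of 0.0428 did not hold after adjustment over all genes (adjusted p = 0.320). Without egfp replicate 1 the log2 fold change was 1.08 (limma adjusted p = 0.705). It ran from 1.08 to 2.51 in the 8 limma fits that each left out 1 tumour, none of which called it. These fits share most tumours, so the constant sign is no separate support.

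The second neutrophil marker, lyz, was near the limit of detection. Its reads numbered 5, 4, 25, 4 and 39 in dgat1a replicates 1 to 5, against 0, 1 and 1 in egfp replicates 1 to 3. These reads correspond to 0.220, 0.167, 1.15, 0.146 and 1.49 fpm in dgat1a tumours and 0, 0.0441 and 0.0386 fpm in egfp tumours. All egfp values lay under 3 reads, the smallest count taken as detectable, which corresponds to 0.109 to 0.138 fpm. All dgat1a values lay above it, so the groups did not overlap, and dgat1a replicates 3 and 5 held most of the reads. lyz was the 1 marker of 5 with no overlap between the groups, and 4.11% of all listed genes were higher in dgat1a tumours without overlap.

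With a mean of 0.407 fpm over the 8 tumours, lyz lay under the minimum of 1 fpm and was not among the genes tested. Pooled over tumours, 77 reads in dgat1a against 2 in egfp gave a ratio of 22.5 after scaling for depth, with a 95% interval from 6.02 to 189 that covers counting error only and not the spread between tumours. Tested without the minimum, lyz had a log2 fold change of 0.93 (SE 0.40) on log2(fpm + 0.5) and was not called by limma (adjusted p = 0.378), which called 0.0312% of genes. This value is set largely by the pseudocount, being 2.07 with a pseudocount of 0.1 and 0.59 with one of 1. edgeR's quasi-likelihood test on recovered reads gave a log2 fold change of 4.29 and did not call lyz either (adjusted p = 0.240), with 0.0134% of genes called. DESeq2 on the same reads gave 4.51 and called it (adjusted p = 0.0443), with 2.16% of genes called higher. With 0 to 1 reads in egfp tumours none of these fitted fold changes is a bound. In the authors' deposited table lyz had a log2 fold change of 1.97 (SE 0.63; adjusted p = 0.0432), where 1.83% of genes were called higher. With 1 tumour left out at a time, DESeq2's adjusted p for lyz ran from 0.0334 to 0.196. The call was lost without any 1 of egfp replicates 1, 2 and 3 or dgat1a replicates 3 and 5. How many of all genes these fits called was not counted.

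The myeloid regulator spi1b had the smallest fold change of the 4 tested markers. It measured 31.7, 41.5, 30.8, 59.9 and 36.8 fpm in dgat1a replicates 1 to 5, against 24.1, 40.6 and 34.2 fpm in egfp replicates 1 to 3. The groups overlapped, with dgat1a replicate 4 highest and egfp replicate 1 lowest, as for mpeg1.1. The means were 40.2 ± 11.8 fpm in dgat1a tumours (SD, n = 5) and 33.0 ± 8.32 fpm in egfp tumours (SD, n = 3). spi1b had a log2 fold change of 0.27 (SE 0.28) with a 95% interval from -0.35 to 0.89 (limma adjusted p = 0.657), and it was 0.06 without egfp replicate 1 (limma adjusted p = 0.967).

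The general leukocyte marker lcp1 was uniform in egfp tumours and varied in dgat1a tumours. It measured 83.0, 174.2, 130.4, 235.6 and 110.3 fpm in dgat1a replicates 1 to 5, against 79.1, 89.1 and 93.9 fpm in egfp replicates 1 to 3. Of the dgat1a tumours, 4 lay above all egfp values and replicate 1 lay within their range. The means were 146.7 ± 59.8 fpm in dgat1a tumours (SD, n = 5) and 87.4 ± 7.54 fpm in egfp tumours (SD, n = 3). For lcp1 the log2 fold change came to 0.65 (SE 0.32) and the 95% interval ran from -0.06 to 1.37 (limma adjusted p = 0.362). Without egfp replicate 1 it was 0.59 (limma adjusted p = 0.680).

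**Figure D1:**
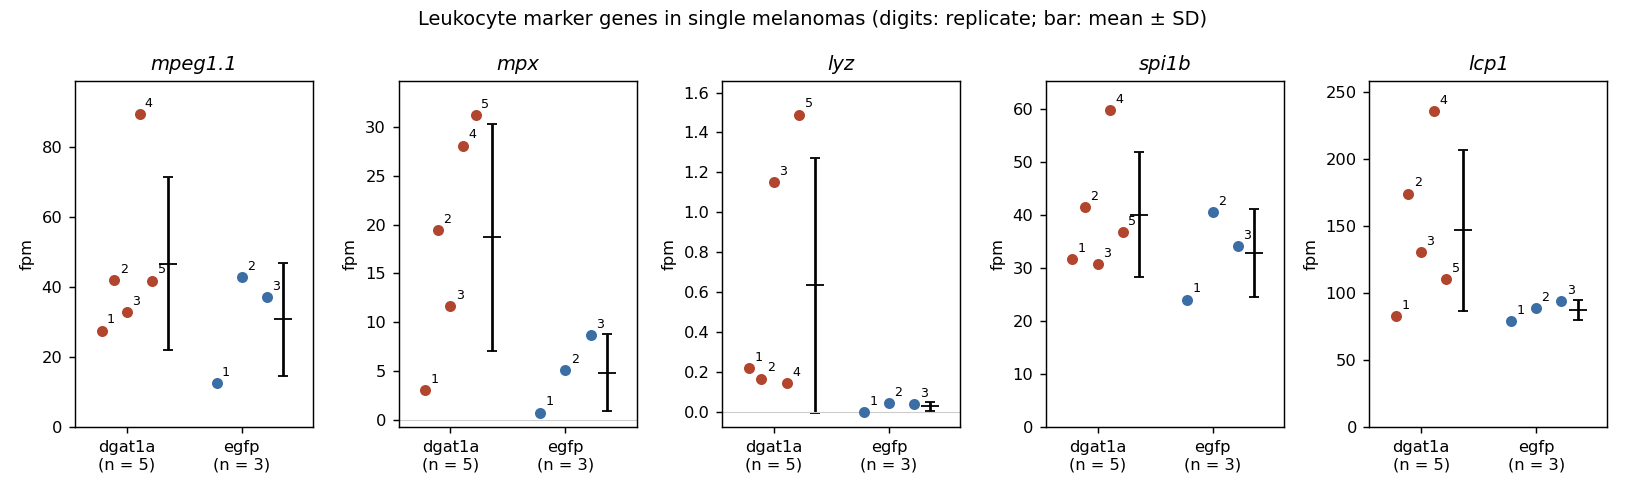
Level in fpm (linear axes, each gene on its own scale) of the 5 markers in every tumour, with dgat1a tumours (n = 5) left of egfp tumours (n = 3). Points are single tumours numbered by replicate and black bars show the mean ± SD. lyz is the 1 marker whose groups do not overlap, at 0.146 to 1.49 fpm in dgat1a tumours and 0 to 0.0441 fpm in egfp tumours.

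Over all 4 tested markers, 0 had an adjusted p under 0.05 in limma, where 0.0534% of the 16853 tested genes did. At an unadjusted p under 0.05, 1 of the 4, mpx, was higher in dgat1a tumours, and 6.83% of tested genes were. With the edgeR quasi-likelihood test on recovered reads, 0 of the 4 were called, against 0.0178% of genes, and 0 had an unadjusted p under 0.05, against 6.85% with higher values in dgat1a tumours. With DESeq2 on the same genes 0 of the 4 were called, against 5.20% of genes in both directions together. Of the 866 genes DESeq2 called, 391 were higher in dgat1a tumours. At an unadjusted DESeq2 p under 0.05, 2 of the 4, mpx and lcp1, were higher in dgat1a tumours, against 9.21% of genes. The labels do not say whether tumours came from separate fish, so these p-values measure the spread between the samples, which may be technical.

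The 5 markers differed in how far single tumours lay apart. In dgat1a tumours the highest value over the lowest was 10.3 for mpx, 10.2 for lyz, 3.23 for mpeg1.1, 2.84 for lcp1 and 1.94 for spi1b. In egfp tumours it was 11.6 for mpx, 3.42 for mpeg1.1, 1.68 for spi1b and 1.19 for lcp1. The SD of the log2 level of mpx was 1.29 among dgat1a tumours and 1.50 among egfp tumours, at percentiles 95.6 and 93.7 of all tested genes. The SD of lcp1 was 0.58 among dgat1a tumours and 0.13 among egfp tumours, at percentiles 71.2 and 6.68, and the difference in spread was not tested. For lyz the SD was 0.79 among dgat1a tumours. Counting error alone gives an SD of 0.09 for mpx, 0.03 for lcp1 and 0.18 for lyz in that group.

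Whether macrophage and neutrophil markers varied together was examined over the 8 tumours for the 10 pairs of markers, with exact two-sided permutation tests adjusted over the 10 pairs. mpeg1.1 and spi1b followed each other most closely, with a Pearson's r of 0.96 (exact permutation p = 0.00146, adjusted p = 0.0146) and a Spearman's rho of 0.95 (exact permutation p = 0.00114, adjusted p = 0.0114). Without the 2 tumours farthest from the median of mpeg1.1 the r was 0.86, without egfp replicate 1 it was 0.97, and on deviations from each group's mean it was 0.95. mpeg1.1 and mpx had an r of 0.84 (exact permutation p = 0.00620, adjusted p = 0.0310) and a rho of 0.64 (exact permutation p = 0.0962, adjusted p = 0.160). That r was 0.81 on deviations from each group's mean, 0.60 without the 2 tumours farthest from the median of mpeg1.1 and 0.64 without egfp replicate 1 (exact permutation p = 0.103). The remaining pairs without lyz had r between 0.74 and 0.79 (exact permutation adjusted p from 0.0518 to 0.0579). Without the 2 tumours farthest from the median of the first gene, r was 0.36 for mpeg1.1 and lcp1 and 0.33 for spi1b and lcp1. It was then 0.68 for mpx and spi1b and 0.95 for mpx and lcp1. Without egfp replicate 1 these pairs had r of 0.78, 0.76, 0.54 and 0.75 in the same order. The 2 neutrophil markers, mpx and lyz, had an r of 0.53 (exact permutation adjusted p = 0.252), and lyz had an r of 0.14 with mpeg1.1, -0.05 with spi1b and 0.15 with lcp1. The lyz groups lay apart, so its pooled r also carries the group difference, and on deviations from group means it was 0.23 with mpx. In all egfp tumours and dgat1a replicates 1, 2 and 4, lyz lay at 0 to 0.220 fpm, under the pseudocount of 0.5. Its r values therefore rest mostly on dgat1a replicates 3 and 5 and cannot show whether lyz follows the other markers.

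**Figure D2:**
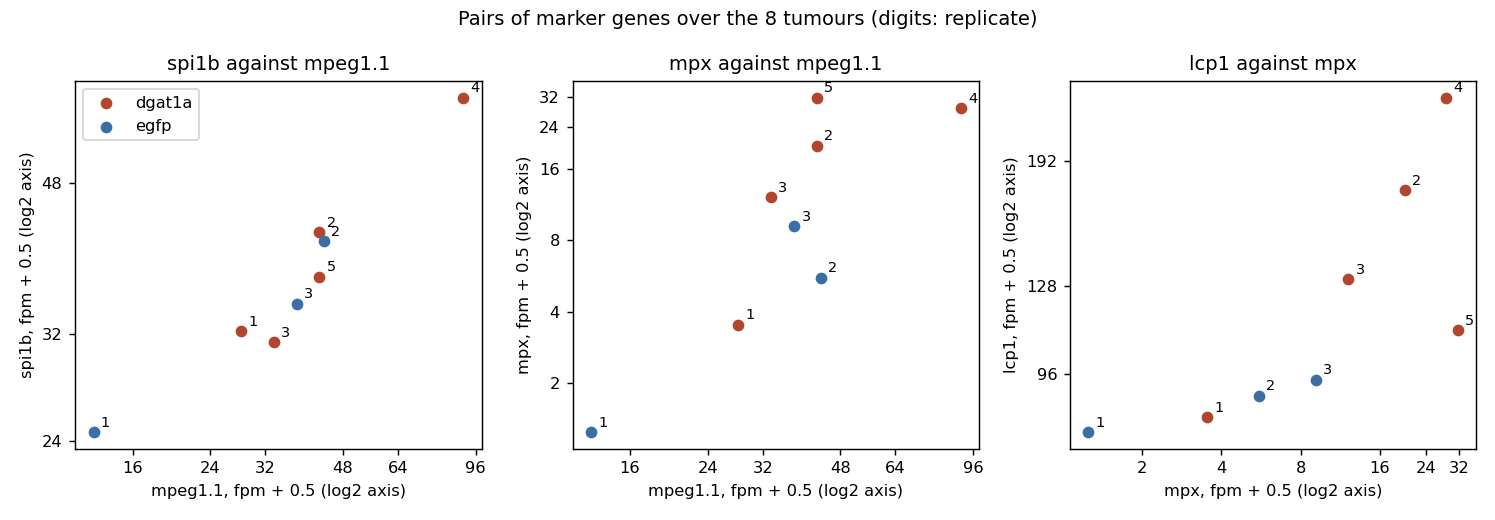
Levels of 3 pairs of markers in the 8 tumours, as fpm + 0.5 on log2 axes, with dgat1a tumours in red and egfp tumours in blue, numbered by replicate. spi1b tracks mpeg1.1 in both groups (r = 0.96), whereas at similar mpeg1.1 the mpx values of dgat1a replicates 2 and 5 lie above that of egfp replicate 2.

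The neutrophil marker mpx was also set against the macrophage marker within each tumour. The log2 ratio of mpx to mpeg1.1 was -2.99, -1.09, -1.46, -1.65 and -0.42 in dgat1a replicates 1 to 5, against -3.39, -2.96 and -2.05 in egfp replicates 1 to 3. dgat1a replicate 1 again lay among the egfp tumours and the other 4 dgat1a tumours above them. The means were -1.52 ± 0.95 in dgat1a tumours (SD, n = 5) and -2.80 ± 0.69 in egfp tumours (SD, n = 3), a difference of 1.27 that was not tested. The ratio of lyz to mpeg1.1 was not read as a result. With lyz under 3 reads in every egfp tumour, the ratio is set there by the pseudocount. In dgat1a replicates 1, 2 and 4 lyz also lay under the pseudocount of 0.5 fpm, at 0.146 to 0.220 fpm. The group difference in this ratio is given below only to show how far it depends on the processing.

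The genes whose pattern over the 8 tumours was most like that of the markers were looked up among all tested genes. For mpeg1.1 they were si:dkey-221j11.3 (r = 0.99), at 0.791 to 4.27 fpm in dgat1a tumours and 0.0440 to 1.63 fpm in egfp tumours, and si:ch211-79k12.1 (r = 0.99), at 19.1 to 60.6 fpm in dgat1a tumours and 5.86 to 31.2 fpm in egfp tumours. For the mean of mpx and lyz the closest was npsn (r = 0.97), which encodes a zebrafish astacin-type protease used as a neutrophil marker. npsn measured 2.07, 8.80, 7.23, 10.3 and 17.6 fpm in dgat1a replicates 1 to 5, against 0.396, 4.28 and 3.09 fpm in egfp replicates 1 to 3. The next was CSRP1, as the reference table writes it (r = 0.96), at 11.0 to 20.5 fpm in dgat1a tumours and 8.37 to 14.1 fpm in egfp tumours. In all 4 genes egfp replicate 1 was the lowest tumour. They were picked for likeness to markers that were themselves lowest there, so this is no separate observation.

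The other macrophage genes had small fold changes. Of 10 named, 8 were matched to an ID and tested, 0 were called in limma, and 6 of the 8 fold changes were above 0, with a median log2 fold change of 0.39. Over all tested genes the median was 0.04 and 53.6% were above 0. At an unadjusted p under 0.05 there was 1 gene of the 8, where 6.83% of all tested genes were higher in dgat1a tumours at that threshold. It was cd68, which encodes a lysosomal protein of macrophages, with a mean of 133.8 ± 54.6 fpm in dgat1a tumours (SD, n = 5) and 71.8 ± 29.0 fpm in egfp tumours (SD, n = 3) and a log2 fold change of 0.90 (limma adjusted p = 0.312). marco, a scavenger receptor, measured 211.8 ± 74.9 fpm in dgat1a tumours (SD, n = 5) and 147.2 ± 42.5 fpm in egfp tumours (SD, n = 3), and its log2 fold change was 0.50 (limma adjusted p = 0.457). The complement genes c1qa, c1qb and c1qc had log2 fold changes of 0.31, 0.32 and -0.06, that of c1qc being 0.01 with edgeR. They were lowest in dgat1a replicate 5, the tumour with the highest mpx. No other gene of the macrophage list was lowest there, and mpeg1.1 stood at 41.9 fpm, within the range of the other dgat1a tumours. Among dgat1a tumours alone, marco, csf1ra and ctss2.1 were also lowest in replicate 5, whereas cd68 (124.5 fpm) and havcr1 were not. The log2 fold changes of csf1ra, ctss2.1 and havcr1 were 0.46, 0.88 and -0.23.

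Genes of the neutrophil list had larger fold changes than those of the macrophage list, and none was called in limma. Of 10 named, 8 were matched and 7 tested, and all 7 had fold changes above 0, with a median log2 fold change of 1.28. With all 8 tumours, such a median was not particular to neutrophil genes. It was 2.07 for the muscle list (2 tested genes), 1.99 for B cells (3 tested genes) and 1.48 for epidermis (4 tested genes). Pigment cells had 1.04 and T cells 0.90. For endothelium it was -0.09, and the 1 red cell gene had -1.37. At an unadjusted p under 0.05 there were 4 of the 7, cebpb, cebpa, npsn and srgn, all higher in dgat1a tumours, against 6.83% of all tested genes. Of these, cebpb, which encodes a transcription factor of myeloid and other cells, measured 102.2, 249.4, 181.0, 80.7 and 56.7 fpm in dgat1a replicates 1 to 5, against 11.7, 51.6 and 27.2 fpm in egfp replicates 1 to 3. The cebpb groups did not overlap, where 4.11% of all listed genes were higher in dgat1a tumours without overlap. The fold change of cebpb was 2.16 on the log2 scale (SE 0.56). It was called by DESeq2 (adjusted p = 0.00853), which called 5.20% of genes in both directions together. Neither limma (adjusted p = 0.201) nor edgeR (adjusted p = 0.193) called it. The order of the tumours differed from that of mpx, with dgat1a replicates 4 and 5 lowest for cebpb and highest for mpx among dgat1a tumours. mmp9, a secreted protease of neutrophils and other cells, measured 15.3 to 98.1 fpm in dgat1a tumours, against 1.63, 50.6 and 64.2 fpm in egfp replicates 1 to 3. Its log2 fold change was 1.6 (limma adjusted p = 0.490), and 0.02 without egfp replicate 1. Without egfp replicate 1 the list's median log2 fold change was 0.68, and 1 gene, cebpb, had an unadjusted p under 0.05, against 4.0% of tested genes.

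Genes shared by myeloid cells and other white blood cells had a median fold change between those of the macrophage and neutrophil lists. Of 10 named, 9 were matched and 8 tested. All 8 had fold changes above 0, with a median of 0.64 on the log2 scale, and 0 were called in limma. The matched gene under the minimum, tyrobp, went the other way, with a log2 fold change of -0.45 when tested without the minimum (limma adjusted p = 0.659). That value rests largely on egfp replicate 1, where tyrobp was highest, at 2.60 fpm. It measured 0.353 and 0.502 fpm in egfp replicates 2 and 3 and 0.292 to 0.875 fpm in dgat1a tumours. At an unadjusted p under 0.05 there were 2 of the 8, ncf1 and ptprc, against 6.83% of all tested genes. ncf1, which encodes a cytosolic subunit of the phagocyte NADPH oxidase, measured 9.45, 23.1, 24.1, 28.7 and 15.3 fpm in dgat1a replicates 1 to 5, against 3.44, 5.55 and 6.68 fpm in egfp replicates 1 to 3. Its groups did not overlap, with a fold change of 1.80 on the log2 scale (SE 0.38). Of all listed genes, 4.11% were higher in dgat1a tumours without overlap. DESeq2, which called 5.20% of genes in both directions together, called ncf1 (adjusted p = 0.000861). The tests of limma (adjusted p = 0.156) and edgeR (adjusted p = 0.151) did not call it. The membrane subunits cybb and cyba had log2 fold changes of 0.69 and 0.46, and rac2, a GTPase that acts with the oxidase, 0.59 (limma adjusted p = 0.552, 0.420 and 0.443). ptprc, which encodes the leukocyte surface phosphatase CD45, measured 83.2 ± 31.3 fpm in dgat1a tumours (SD, n = 5) and 45.8 ± 7.02 fpm in egfp tumours (SD, n = 3), without overlap, and had a log2 fold change of 0.79 (limma adjusted p = 0.284). coro1a, which encodes an actin-binding protein of white blood cells, measured 87.3 ± 34.9 fpm in dgat1a tumours (SD, n = 5) and 49.1 ± 8.46 fpm in egfp tumours (SD, n = 3).

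**Figure D3:**
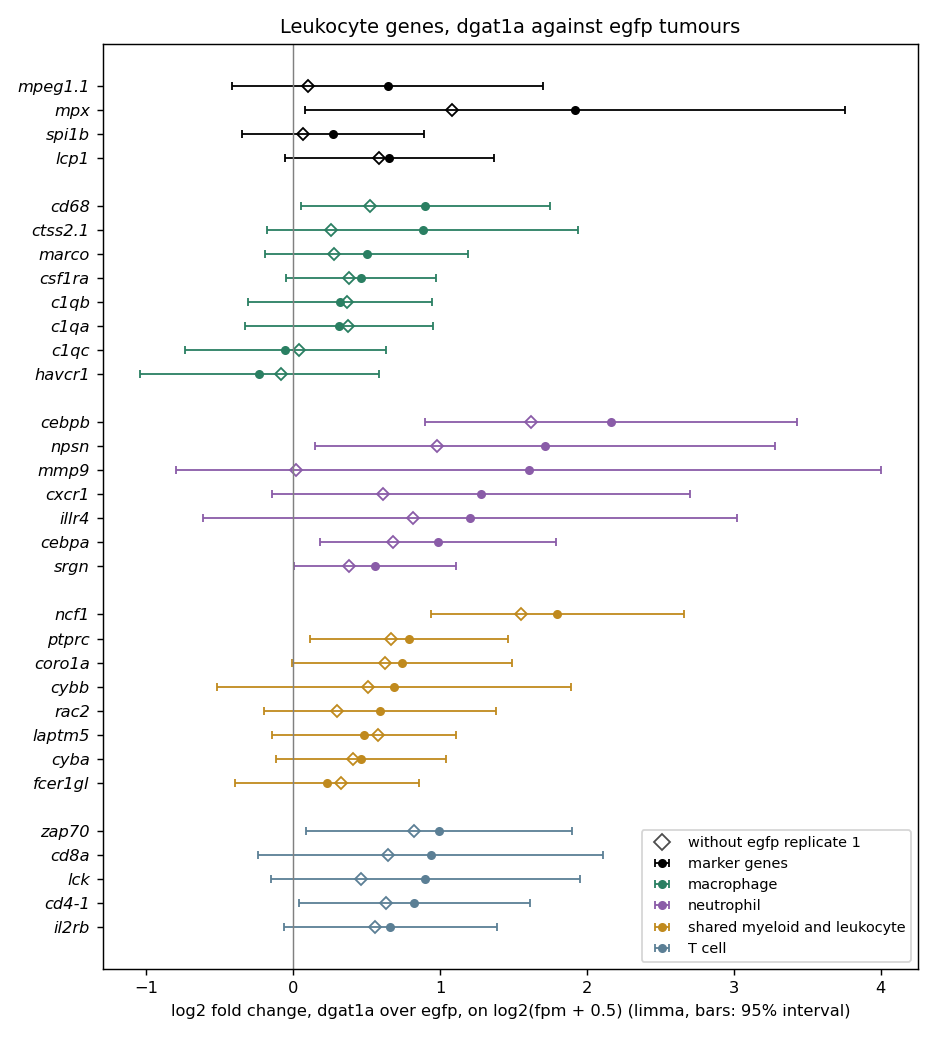
log2 fold change of dgat1a over egfp on log2(fpm + 0.5) for the 4 tested markers and the tested genes of 4 lists, with bars for the 95% interval from limma (n = 5 and 3), and open diamonds for the value without egfp replicate 1. Most points lie right of 0 and most intervals reach it; mmp9 is at 1.6, and at 0.02 without that tumour.

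Taking these 3 lists as 1, 7 of 23 tested genes had an unadjusted p under 0.05 and higher values in dgat1a tumours, where 6.83% of all tested genes did, and 0 did with lower values, where 8.18% did. Without egfp replicate 1 the number was 2 genes, cebpb and ncf1, where 4.0% of tested genes had such a p. Of the 25 matched genes of these lists, 16 were lowest in egfp replicate 1 and 14 were highest in dgat1a replicate 4. Of all tested genes, 23.5% were lowest in egfp replicate 1 and 12.2% highest in dgat1a replicate 4. In the authors' deposited table, 2 of 25 genes of the 3 lists had an adjusted p under 0.05, cebpb (0.0158) and ncf1 (0.00112), both higher in dgat1a tumours, where 1.83% of all genes were called higher.

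Markers of other cells went both ways in egfp replicate 1, where most leukocyte values were low. The epidermal genes krt4, krt5 and epcam were low there too, whereas cdh1, the red cell gene hbaa1 and the pigment cell gene sox10 (1116 fpm, its highest value) were not. Of 5 epidermal genes named, 4 were matched, and their summed level ranged from 952.4 to 3309 fpm in dgat1a tumours and from 384.0 to 3110 fpm in egfp tumours, with egfp replicate 1 lowest. In that tumour krt4, krt5 and epcam stood at 5.46, 16.7 and 0.881 fpm, against at least 104.7, 584.5 and 32.04 fpm in every other tumour, whereas cdh1 was at 360.9 fpm and no epidermal gene was listed at 0. The red cell gene hbaa1, the 1 of 3 that was matched, was highest in egfp replicate 1, with a range of 45.9 to 262.8 fpm in dgat1a tumours and 175.7 to 603.6 fpm in egfp tumours. It was lower in dgat1a tumours at an unadjusted limma p of 0.0456 (adjusted p = 0.326), where 8.18% of tested genes were lower at p under 0.05. Without egfp replicate 1 the unadjusted limma p of hbaa1 was 0.186. The part of these cells in the leukocyte values was not tested.

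Endothelial, muscle and pigment cell genes were summed in the same way. The summed level of the 3 matched endothelial genes of 4 ranged from 50.2 to 98.6 fpm in dgat1a tumours and from 51.4 to 105.0 fpm in egfp tumours. Of these, kdrl and cdh5 had log2 fold changes of -0.44 and -0.09 (limma adjusted p = 0.585 and 0.906). That of fli1 was 0.32 (limma adjusted p = 0.639). The 2 matched muscle genes of 5 summed to between 0.911 and 200.03 fpm in dgat1a tumours, highest in replicate 1, and to between 0.463 and 3.53 fpm in egfp tumours, and myhz2 was listed at 0 in dgat1a replicate 4 and egfp replicate 1. The 4 matched pigment cell genes of 6 summed to between 2523 and 14867 fpm in dgat1a tumours and to between 2745 and 3659 fpm in egfp tumours. No gene of these lists was called in limma. At an unadjusted limma p under 0.05, 2 of the 4 pigment cell genes, tyr and pmela, were higher in dgat1a tumours, against 6.83% of all tested genes. No endothelial or muscle gene had such a p. Without egfp replicate 1, tyr had an unadjusted limma p of 0.0379 and pmela one of 0.128, where 4.0% of tested genes were higher at p under 0.05. DESeq2 called pmela (adjusted p = 0.0455) and ckma (adjusted p = 0.0258), both higher in dgat1a tumours. It called 5.20% of genes in both directions together.

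**Figure D4:**
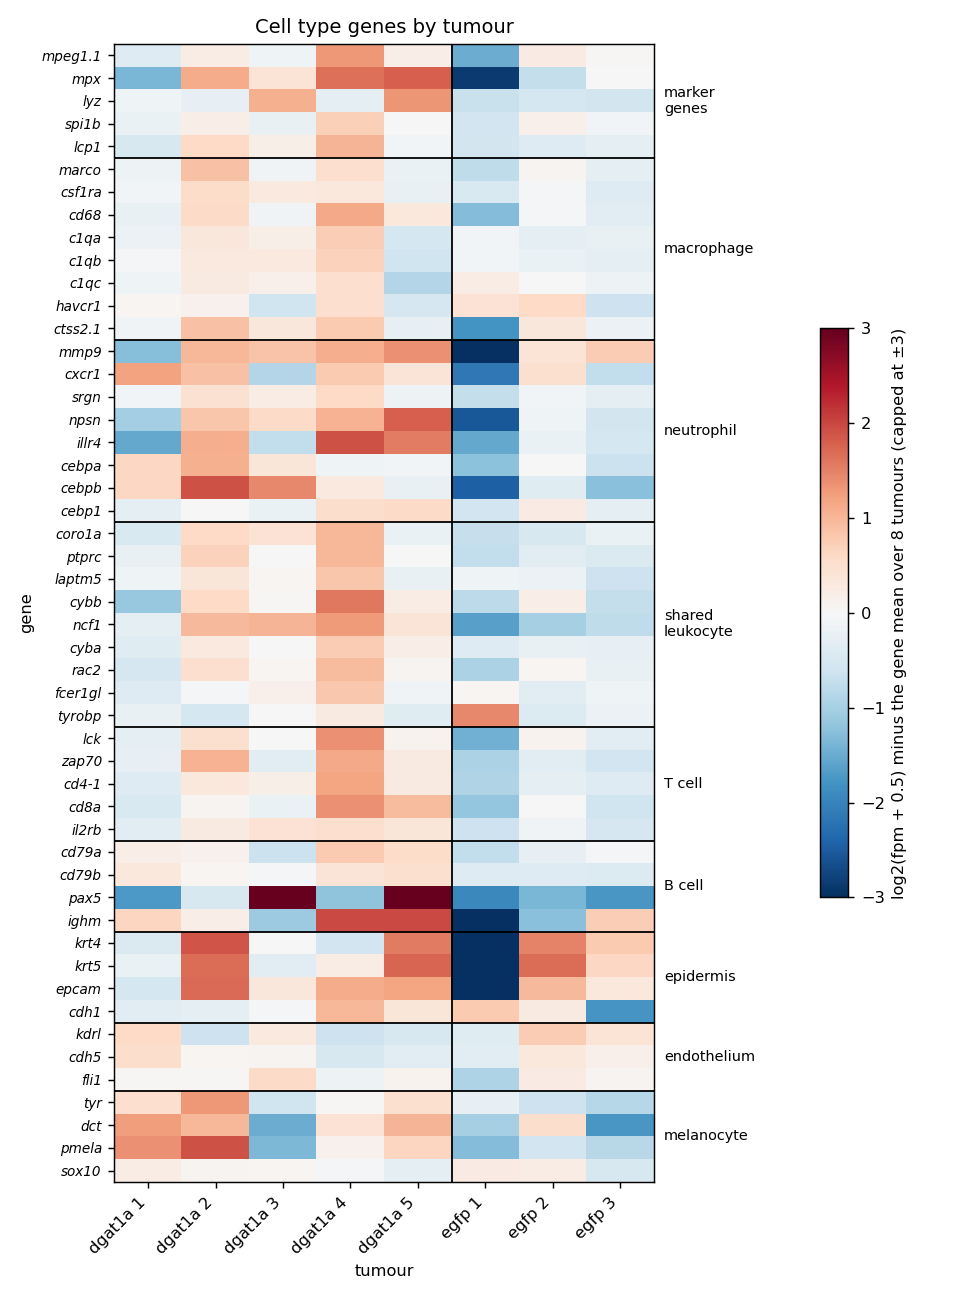
log2(fpm + 0.5) minus each gene's mean over the 8 tumours, capped at ±3, for the 5 markers and the matched genes of 8 lists, with dgat1a tumours left of egfp tumours. egfp replicate 1 is low in mpx (0.749 fpm), the neutrophil genes and the keratins, and dgat1a replicate 4 is high in most leukocyte genes.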

How the data were processed

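Total RNA was taken from tumours with Trizol, and sequencing libraries used Illumina's protocols, per the labels; strand settings are not given in the sources used here. STAR 2.5.3, featureCounts 1.6.2, DESeq2 1.14.1 and build GRCz11 are listed without settings, per the submitters' processing notes. The authors deposited a per-million signal (fpm), variance-stabilised values on a log2 scale, and their own comparison with mean signal, log2 fold change, score, p-value and adjusted p-value per gene, per the file headers. The sign of that fold change is positive where dgat1a is higher, as checked against the levels.

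In every library 100% of fpm values came out as whole reads (tolerance 0.01 reads), which gave back the read counts. log2(fpm + 0.5) was fitted in limma 3.58.1 (R 4.3.3) with a mean-variance trend, two-sided, for the 16853 genes whose mean reached 1 fpm, with Benjamini-Hochberg adjustment and a threshold of 0.05. edgeR 4.0.16 and DESeq2 1.42.0 on the read counts were alternatives, and the tests were tried on simulated data. Counting intervals are exact binomial ones and cover counting error only. Symbols of the 5 markers came with the choice of members; the reference table pairs 21017 of 22416 IDs with symbols and writes EPX for mpx. From the 10 cell type lists, 48 of 63 genes were matched, and symbols shared by several IDs, such as mfap4, were left out. Genes named beside the markers were the 2 with the highest Pearson's r to mpeg1.1, the 2 with the highest r to the mean of mpx and lyz, and from each list the 2 with the largest mean fpm and any called in limma. That mean only picked names, and ranks no genes, since fpm are not per length. The other list genes named, among them ncf1, cebpa, srgn, the c1q genes, cybb, cyba, rac2, epcam and cdh1, were chosen after their values were seen. The members and lists were chosen with earlier results of these data known. The smallest chi-square between 2 libraries was 79.3 per degree of freedom, so no library was counted as a duplicate.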

Additional observations from a re-analysis of the deposited data

Results flagged for a closer look

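mpeg1.1 in dgat1a replicate 4, at 89.4 fpm, lay far from the other dgat1a tumours, which ran from 27.6 to 42.0 fpm. Its gap to the next tumour was 0.768 of the group's range, above Dixon's critical value of 0.710 for 5 samples. On the log2 scale the ratio was 0.646 and did not pass. The 5 markers were each examined in the dgat1a group, and chance passes about 1 group in 20.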

How the results depend on the processing

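No marker changed direction in any fit, and 0 of the 4 tested markers were called with other pseudocounts, filters or scalings, with the variance-stabilised values, the edgeR quasi-likelihood test or DESeq2 on the same genes. Without the minimum, an alternative chosen after seeing the data, DESeq2 called 1 of 5, lyz, and 0 to 2 when each tumour was left out. The 2 were lyz and mpx (DESeq2 adjusted p = 0.0483) without dgat1a replicate 1. How many of all genes DESeq2 called with a tumour left out was not counted, so those calls stand without a background. The count of all genes called was 9 in the main limma fit. It was 3 with edgeR, with or without the minimum, and 866 with DESeq2 (923 without the minimum). In limma it was 5 with dgat1a replicates 1 to 3 only and 0 with the replicate block (replicates 1 to 3 of both groups). When each tumour was left out of the limma fit it was 5 to 55, fewest without egfp replicate 1 and most without egfp replicate 2. Same-numbered tumours deviated together with r of 0.24, 0.07 and 0.01. No unmatched pairs were set beside these values, so they cannot show whether same-numbered tumours shared a clutch or batch, which the labels do not say. The mpx log2 fold change of 1.25 had an SE of 0.42 with the replicate block and 0.88 on the same tumours without it. With the replicate block 0 markers were called.

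DESeq2 called 5.20% of all genes with the minimum, in both directions together. The 3 leukocyte lists had 0 genes called in limma and 2 with DESeq2, with or without the minimum. Their count at an unadjusted p under 0.05 was 7. It was 3 with dgat1a replicates 1 to 3 only and 2 to 12 when each tumour was left out. It was 2 without egfp replicate 1, 3 without egfp replicate 3 or dgat1a replicate 2, 4 without dgat1a replicate 4 and 12 without dgat1a replicate 1. For these limma fits the share of all genes at that threshold was taken only with all tumours (6.83%) and without egfp replicate 1 (4.0%). The other counts therefore cannot be read against a background. Marker pairs that correlated numbered 2; they numbered 5 with a pseudocount of 1 or the variance-stabilised values, 1 on deviations from group means or without the 2 farthest tumours, and 1 to 6 when each tumour was left out (1 without dgat1a replicate 1, 2 or 4 or egfp replicate 1 or 3, 4 without egfp replicate 2, 6 without dgat1a replicate 5). The dgat1a minus egfp difference in the log2 ratio of lyz to mpeg1.1, which the pseudocount sets, was 0.29; it was -0.043 with a pseudocount of 1, 1.42 with one of 0.1, and -0.013 to 0.794 when each tumour was left out, lowest without egfp replicate 2. For these changes the cause was not tested. The counts for the 3 lists were alternatives chosen after seeing the data. Promoter motifs were not run, as no promoter sequences were used here. Depth limits lyz, at 0 to 1 reads in egfp tumours.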

Other observations

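Lymphocyte genes were also examined. Of 6 T cell genes named, 5 were matched and tested, all had fold changes above 0 with a median log2 fold change of 0.90, and 0 were called in limma. zap70, a kinase of T cell receptor signalling, measured 5.98, 15.2, 5.57, 16.2 and 8.67 fpm in dgat1a replicates 1 to 5, against 3.44, 5.60 and 4.63 fpm in egfp replicates 1 to 3 (log2 fold change 0.99, limma adjusted p = 0.302). cd4-1, a co-receptor of helper T cells, had a log2 fold change of 0.82 (limma adjusted p = 0.318). These 2 of the 5 had an unadjusted p under 0.05, against 6.83% of all tested genes higher in dgat1a tumours. Without egfp replicate 1 their log2 fold changes were 0.82 for zap70 and 0.63 for cd4-1, and neither had an unadjusted p under 0.05. All 5 T cell genes were lowest in egfp replicate 1 and highest in dgat1a replicate 4.

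Of the 4 B cell genes, all matched, 3 were tested and 0 were called in limma. The gene under the minimum, cd79b, measured 0.184 to 0.496 fpm in dgat1a tumours and 0.0386 to 0.0441 fpm, the level of 1 read, in egfp tumours. Its groups did not overlap, where 4.11% of all listed genes were higher in dgat1a tumours without overlap. Tested without the minimum it was not called by limma (adjusted p = 0.255). ighm, the immunoglobulin heavy chain, measured 31.1, 22.8, 8.93, 79.7 and 79.0 fpm in dgat1a replicates 1 to 5, against 1.67, 7.93 and 33.3 fpm in egfp replicates 1 to 3 (log2 fold change 1.99, limma adjusted p = 0.349). pax5, a transcription factor of B cells and of parts of the nervous system, measured 0.132, 1.0, 69.3, 0.401 and 21.3 fpm in dgat1a replicates 1 to 5, against 0.0440 to 0.309 fpm in egfp tumours. pax5 was not called by limma (adjusted p = 0.411) and was called by DESeq2 (adjusted p = 0.00617), which called 5.20% of genes in both directions together. It was high in dgat1a replicates 3 and 5, the tumours with the most lyz reads, whereas ighm was low in dgat1a replicate 3.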
